A study of Mus musculus with 68 samples.

Results

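A set of 33 interferon response genes of the mouse was followed in RNA from endothelial cells, the cells that line blood vessels, in healthy organs and in 4 models of injury to the central nervous system. The genes were chosen by name as well-known targets of interferon signalling. All 33 were found among the 37991 lines of the deposited expression table, and where a symbol was repeated the line with the highest mean value was used. The 68 libraries fall into 25 groups. Values are CPM, the reads of a gene divided by all reads counted in its library and multiplied by 1000000. CPM is not divided by gene length, so levels are compared between libraries and not between genes.

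In the 4 models, endothelial cells were isolated by cell sorting at an acute, a subacute and a chronic stage, with 3 libraries per injured group. In the epilepsy, stroke and traumatic brain injury (TBI) models the cells came from brain, and in experimental autoimmune encephalomyelitis (EAE), in which an immune response to myelin is raised, they came from the spinal cord. Stroke was an occlusion of the middle cerebral artery. Epilepsy, EAE and stroke each have 1 control group of 3 libraries that is shared by all stages, whereas each TBI stage has its own control, with 3, 2 and 2 libraries. Healthy endothelium was sorted from heart, kidney, lung and liver and, in 2 preparations called brain endothelial and brain vascular, from brain, with 2 libraries each, and whole brain has 4 libraries. The brain endothelial libraries came from the forebrain of adult male mice that carried Rosa-tdTomato and VE-Cadherin-CreERT2, a Cre recombinase that an endothelial promoter drives and tamoxifen switches on. For the other 66 libraries, the genotype, strain, age and times of the stages are not given in the sources used here. The labels do not say whether replicates came from separate animals, so the spread behind each p-value is that between libraries and may be technical.

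Interferons are secreted proteins that signal through receptors and the kinases Jak1, Jak2 and Tyk2. Type I interferons activate a complex with Stat2 and Irf9 that binds the interferon-stimulated response element, and interferon gamma acts through the gamma-activated site. The target genes encode sensors of viral RNA, enzymes that block translation of viral RNA, proteins that hold viruses at membranes, and regulators that strengthen or dampen the response. Endothelial cells carry receptors for both kinds of interferon, and the brain endothelium is a barrier through which interferon signals from blood can reach the brain.

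RefSeq promoter windows on build GRCm38.p6 were at hand for 27 of the 33 genes. The search used the core of the interferon-stimulated response element, which is GAAA, then 2 bases of any kind, then GAAA, and the core of the gamma-activated site, TTCNNNGAA, on both strands. The response element core stood in the windows of 15 of these 27 genes (55.6%), against 3.99% of 27025 genes with a window. TTCNNNGAA stood in those of 7 of the 27 genes (25.9%), against 9.55% of genes. Both motifs were found in 4 genes and neither in 9, among them Ifi44, Ifitm1, Irf7, Herc6 and Oasl2. The 5 windows below show the 150 bases before the start of genes named in the results, with each match in capitals. Only stretches that hold a match are printed. Ifit2, Ifitm3, Ifi44, Oasl1, Ifitm1 and Herc6, which the results also name, had no match in these 150 bases. Ifit2 had no response element core anywhere in its windows. A match describes the letters of the window and is not evidence of binding.
Ifit1, chr19:34640739-34640888, plus strand: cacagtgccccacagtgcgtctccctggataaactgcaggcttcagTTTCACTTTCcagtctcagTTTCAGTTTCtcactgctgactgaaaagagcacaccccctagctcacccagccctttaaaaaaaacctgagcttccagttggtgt
Isg15, chr4:156200819-156200968, minus strand: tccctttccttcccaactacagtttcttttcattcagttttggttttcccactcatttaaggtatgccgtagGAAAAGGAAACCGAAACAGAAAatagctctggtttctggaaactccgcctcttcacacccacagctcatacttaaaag
Rsad2, chr12:26456453-26456602, minus strand: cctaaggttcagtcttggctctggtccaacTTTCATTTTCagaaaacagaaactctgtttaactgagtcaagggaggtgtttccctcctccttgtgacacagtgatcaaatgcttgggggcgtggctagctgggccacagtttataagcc
Gbp2, chr3:142620513-142620662, plus strand: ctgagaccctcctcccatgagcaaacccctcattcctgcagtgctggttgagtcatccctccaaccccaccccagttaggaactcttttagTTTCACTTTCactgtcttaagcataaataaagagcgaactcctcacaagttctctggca
Irf1, chr11:53769864-53770013, plus strand: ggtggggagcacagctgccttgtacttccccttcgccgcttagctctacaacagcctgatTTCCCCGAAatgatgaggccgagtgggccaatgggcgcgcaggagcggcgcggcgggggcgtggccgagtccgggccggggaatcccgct
The capitals in Ifit1, Rsad2 and Gbp2 are the response element core on the opposite strand, those in Isg15 are 3 overlapping copies of it, and those in Irf1 are TTCNNNGAA. Ifit1 has the element at 2 places, from 104 and from 85 bases before the start.

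Libraries held 18.78 to 38.76 M counted reads (M, 1000000), with a median of 27.26 M. Genes were tested with limma on log2(CPM + 1) across all genes, and a gene was called when its adjusted p was under 0.05; this scale understates the change of low genes. The filter on low values passed 32 of the 33 members in epilepsy and stroke and all 33 in EAE and TBI. Oas3, a synthetase of the oligoadenylate that activates RNase L, did not pass in epilepsy or stroke and was listed at 0 in all 3 epilepsy controls. Ifit3 and the Oas1, Ifitm and Gbp families have near-identical relatives in the mouse genome, and whether the counting used strand is not given in the sources used here, so their values are uncertain to that extent. In bulk RNA, fewer cells of a type and less RNA per cell cannot be told apart.

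The balance of calls over all genes depended on the scaling, since CPM is not corrected for a shift of many genes at once. In acute epilepsy 1587 genes were higher and 4247 lower, and 2471 and 2775 with quantile normalization. The same change took subacute epilepsy from 1509 higher and 641 lower to 1262 and 1095, and acute to subacute epilepsy from 5209 and 1624 to 3211 and 2991. Chronic epilepsy went from 6 higher and 3 lower to 1 and 3. EAE went from 161 higher and 21 lower to 108 and 63 in the acute stage, from 1170 and 516 to 981 and 1117 in the subacute stage, from 273 and 84 to 319 and 202 in the chronic stage, and from 13 and 2 to 20 and 8 between the acute and the subacute stage. Stroke went from 58 higher and 134 lower to 156 and 121 in the acute stage, from 493 and 565 to 695 and 378 in the subacute stage, and from 436 and 133 to 534 and 269 between them. Its split from the subacute to the chronic stage went from 26 and 333 to 60 and 281, and that of subacute TBI from 177 and 15 to 178 and 81. With edgeR on the recovered reads, which scales by TMM, 2559 genes were higher and 3122 lower in acute epilepsy, 1072 and 1107 in subacute epilepsy, 1123 and 862 in subacute EAE, 718 and 284 in subacute stroke and 642 and 420 in acute TBI.

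Mean member levels differed in direction between models and stages. For each library, the mean log2(CPM + 1) of the 33 genes was set against the mean of its own control group. The acute epilepsy libraries lay at -0.64, -0.54 and -0.40, the subacute ones at 0.65, 0.63 and 0.46, and the chronic ones at 0.05, 0.30 and 0.31, with controls at 0.02, -0.18 and 0.16. All acute epilepsy libraries were thus below, and all subacute ones above, every control. The EAE libraries lay at 0.35, 0.78 and 0.22 in the acute stage, at 0.33, 0.52 and 0.33 in the subacute stage and at -0.24, 0.39 and 0.33 in the chronic stage, with controls within 0.02 of zero. Chronic library 1 of EAE was the only injured EAE library below the controls. In stroke, subacute library 3 stood alone at 0.80, beside 0.03 and 0.05 for the other two. The other stroke libraries lay between -0.21 and 0.05, within the range of the stroke controls (-0.23 to 0.26). The TBI libraries lay at 0.01, -0.48 and -0.12 in the acute stage, with controls at 0.12, -0.12 and 0.01, and at 0.09, -0.01 and -0.12 in the subacute stage, with both controls at 0.00. Acute TBI library 2 lay well below its controls. The chronic TBI libraries, at 0.30, 0.16 and 0.26, were above both of their controls, at 0.11 and -0.11.

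**Figure D1:**
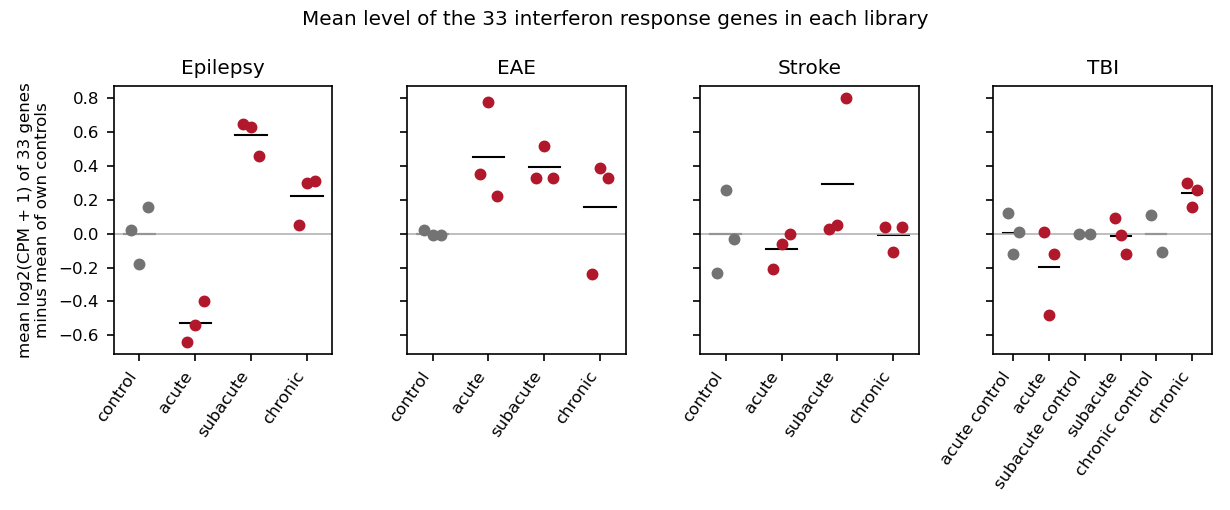
Mean log2(CPM + 1) of the 33 interferon response genes in each library, minus the mean of its own control group, by model and stage. Points are libraries (grey control, red injured) and bars are group means; acute epilepsy libraries lie between -0.64 and -0.40, subacute ones between 0.46 and 0.65, and 1 subacute stroke library lies at 0.80.

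In acute epilepsy, the RNA sensors, the IFIT and ISG15 genes and both guanylate-binding proteins were lower than in control, and the transcription factors did not pass the test. Of 32 members tested, 18 fell and 1 rose, in a comparison where 30.9% of all tested genes fell and 11.6% rose. The members had a median log2 fold change of -0.56, against -0.22 over all genes. In 17 members every acute library lay below every control, as did 34.1% of tested genes. With quantile normalization, which moved the median of all genes from -0.22 to -0.01, 13 members fell and none rose. edgeR on recovered reads called 11 lower and 1 higher.

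Ifit2, whose protein binds viral RNA and inhibits translation, was at 31.2, 19.3 and 24.1 CPM in controls and at 5.01, 4.19 and 6.03 CPM in acute epilepsy. No acute library came near a control. It fell by 2.07 ± 0.20 on the log2 scale (SE; limma, adjusted p = 2.12e-06), and its adjusted p stayed at or below 0.000275 over 13 alternatives. Gbp3, a large GTPase that interferon gamma induces, was at 75.1, 63.3 and 77.5 CPM in controls and 32.6, 31.7 and 42.3 CPM in acute libraries, again without overlap. Its log2 fold change was -1.0 ± 0.15 (adjusted p = 6.33e-05). Herc6, the main ligase that attaches Isg15 to proteins in the mouse, went from 41.9, 29.9 and 36.8 CPM to 15.4, 17.8 and 15.9 CPM. This is a log2 fold change of -1.09 ± 0.16 (adjusted p = 7.44e-05). The acute libraries of Herc6 were close together and below all controls. Oasl2, an OAS-like protein, went from 78.2, 61.8 and 87.6 CPM to 29.7, 31.6 and 46.0 CPM, a log2 fold change of -1.08 ± 0.18 (adjusted p = 0.000216). Its groups did not overlap either.

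By role, all 3 RNA sensors fell in acute epilepsy. Ifih1 (MDA5), which detects long double-stranded RNA, changed by -0.75 on the log2 scale, and Dhx58 (LGP2), which tunes the other sensors, by -0.90. All 3 IFIT genes and all 3 genes of the ISG15 pathway fell, the latter between -1.09 and -0.61. Isg15, a ubiquitin-like protein, was at 26.1, 18.8 and 35.8 CPM in controls and 12.2, 15.1 and 18.0 CPM in acute libraries, which lay just below the lowest control. Its log2 fold change was -0.76 ± 0.23 (adjusted p = 0.0132). Ifit1 was at 82.3, 66.6 and 99.7 CPM in controls and 45.6, 58.5 and 62.7 CPM in acute epilepsy, a log2 fold change of -0.56 ± 0.17 (adjusted p = 0.0162). Several of these calls are less firm than that of Ifit2. Of 13 alternatives, the adjusted p was at or above the threshold in 8 for Ifit3 (up to 0.380), in 6 for Ddx58 (RIG-I), the sensor of short viral RNA (up to 0.134), in 4 for Isg15 (up to 0.192), in 3 for Usp18 (up to 0.213), in 3 for Ifit1 (up to 0.165) and in 1 for Dhx58 (up to 0.0711). Ifih1, Ifit2 and Herc6 kept their calls in all 13. Outside these roles Ifi44 was also called lower, but 10 of 13 alternatives lost that call (adjusted p up to 0.485).

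Among 5 OAS and PKR genes tested, Oas2, Oasl1 and Oasl2 fell, Oas2 by 1.10 ± 0.21 on the log2 scale. Cmpk2, a mitochondrial nucleotide kinase, was at 36.6, 29.5 and 58.1 CPM in controls and 18.3, 16.6 and 19.6 CPM in acute libraries, and fell by 1.09 ± 0.22. Rsad2 (viperin), the antiviral enzyme whose gene lies beside Cmpk2, did not pass, with 59.5, 93.9 and 80.7 CPM in controls and 49.9, 46.5 and 67.7 CPM in acute libraries. Its groups overlapped, unlike those of Cmpk2. Ifitm2, of a family that blocks virus entry at membranes, was the 1 member that rose, from 179, 144 and 188 CPM to 254, 253 and 258 CPM (log2 fold change 0.59 ± 0.17, adjusted p = 0.0108). With quantile normalization its adjusted p was 0.0839. Ifitm3, of the same family, was at 502, 534 and 530 CPM in controls and 406, 420 and 544 CPM in acute epilepsy and did not pass.

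The 4 transcription factors among the members gave log2 fold changes between -0.18 and 0.18. Irf7, the main inducer of type I interferon genes, was at 22.2, 22.7 and 36.2 CPM in controls and 21.3, 24.3 and 32.4 CPM in acute epilepsy (-0.04 ± 0.20, adjusted p = 0.901). Irf9 was at 61.9, 63.4 and 85.3 CPM in controls and 56.0, 73.6 and 80.1 CPM in acute libraries (-0.01 ± 0.16, adjusted p = 0.977). Both genes overlapped with control. Stat2 had 72.9, 71.7 and 83.3 CPM in controls and 66.1, 66.5 and 67.8 CPM in acute epilepsy (-0.18 ± 0.14, adjusted p = 0.309). Irf1, a factor that interferon gamma induces, had 65.8, 42.9 and 59.0 CPM in controls and 57.4, 56.7 and 74.2 CPM in acute libraries (0.18 ± 0.16, adjusted p = 0.407).

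Markers of other cells also differed in acute epilepsy. The summed CPM of 9 neutrophil markers was 12.0 to 63.3 in acute libraries and 6.54 to 10.6 in controls, with Mpo and Elane at 0 in both groups and 2 of 4 tested markers higher. The oligodendrocyte markers summed to 1313 to 1400 CPM against 350 to 692 CPM, with Olig2 at 0 in the controls and, of 4 tested, 1 higher and 1 lower. The astrocyte markers summed to 156 to 166 CPM against 71.3 to 103 CPM, with Aldh1l1 at 0 in the controls and 1 of 7 tested markers higher. Of 16 endothelial markers, 5 were higher and 7 lower, with sums of 13518 to 14674 CPM against 10895 to 12299 CPM. Mitochondrial ribosomal RNA took 22.3 to 24.2% of reads in acute libraries and 27.2 to 31.2% in controls. Their part in the result was not tested.

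In subacute epilepsy the direction was opposite, with the 4 membrane restriction factors, the 3 IFIT genes and Irf7 among the members that rose. Of 32 members tested, 19 rose and none fell, in a comparison where 11.0% of all tested genes rose and 4.67% fell. The median log2 fold change was 0.62 for the members and 0.07 for all genes. In 20 members every subacute library lay above every control, as did 19.9% of tested genes. In 2 members, Oas2 and Ifi35, every subacute library lay below every control, as did 10.2% of tested genes. From the acute to the subacute stage, 11 members that had fallen became higher than control. A further 8 rose without having fallen, and 7 fell in the acute stage without a rise in the subacute stage. Both stages are set against the same 3 controls, which ties their calls together. Of the 11, only Gbp3 kept both calls in all 13 alternatives. For the acute call, 10 alternatives lost that of Ifi44 and 8 that of Ifit3. For the subacute call, 9 lost that of Usp18, 6 that of Ifit1 and 5 each those of Dhx58 and Oasl2. The share of all genes with these patterns was not counted, so whether the members differ from other genes in this is not known.

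Ifitm3 was at 502, 534 and 530 CPM in controls and at 1137, 1107 and 1477 CPM in subacute epilepsy. Every subacute library was far above the controls, and the log2 fold change was 1.23 ± 0.15 (adjusted p = 9.21e-05). Ifi44, an interferon-induced cytoplasmic protein, was at 25.0, 11.7 and 21.8 CPM in controls and 88.1, 83 and 67.8 CPM in subacute libraries. The log2 fold change was 2.03 ± 0.26 (adjusted p = 0.000133). Ifi44 thus gave the largest fold among the members that rose. Oasl1, which in the mouse restrains translation of Irf7, had 2.46, 4.02 and 3.53 CPM in controls and 11.0, 9.44 and 9.40 CPM in subacute epilepsy (1.35 ± 0.21, adjusted p = 0.000645). Ifit3 had 37.5, 18.2 and 26.6 CPM in controls and 64.5, 83.4 and 57.0 CPM in subacute libraries (1.32 ± 0.22, adjusted p = 0.0010). Neither gene overlapped between the groups.

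All 4 membrane restriction factors rose, by 0.91 to 1.45 on the log2 scale. Ifitm1 was at 13.9, 12.3 and 4.79 CPM in controls and 17.5, 22.9 and 52.0 CPM in subacute libraries, the widest spread of the family. It rose by 1.45 ± 0.38 on the log2 scale (adjusted p = 0.0165), and 3 of 13 alternatives lost this call, among them the one without subacute library 3 (adjusted p = 0.0876). Bst2 (tetherin), which holds budding viruses at the cell surface, was at 17.8, 10.0 and 22.3 CPM in controls and 46.7, 31.4 and 32.5 CPM in the subacute stage (1.14 on the log2 scale). Ifit2 passed its control level, at 50.3, 43.4 and 40.2 CPM. Isg15 was at 65.7, 44.2 and 46.5 CPM, above all controls, with a log2 fold change of 0.95 ± 0.23 (adjusted p = 0.0103). Without subacute library 1 its adjusted p was 0.0638. Ifit1 was at 126, 153 and 104 CPM, also above all controls (0.62 ± 0.17, adjusted p = 0.0246). Its call is less firm, with 6 of 13 alternatives at or above the threshold.

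Of the transcription factors, Irf7 alone rose in subacute epilepsy, to 44.3, 52.8 and 57.7 CPM (0.94 ± 0.20, adjusted p = 0.00608). All 3 values lay above the highest control. Irf9 was at 81.5, 85.5 and 72.5 CPM (0.20 ± 0.16, adjusted p = 0.442), Stat2 at 71.3, 75.9 and 69.7 CPM (-0.07 ± 0.14, adjusted p = 0.773), and both overlapped with the controls. Irf1 was at 43.8, 45.9 and 38.4 CPM (-0.36 ± 0.16, adjusted p = 0.138) and overlapped as well. Rsad2, at 60.4, 62.7 and 41.5 CPM, and Cmpk2, at 47.6, 39.0 and 30.6 CPM, did not pass and overlapped with the controls. Subacute library 3 of Rsad2 lay below its lowest control of 59.5 CPM. The summed CPM of 18 microglia and macrophage markers was 73.0 to 632 in subacute libraries and 52.7 to 317 in controls, none of these markers was at 0 in every library of a group, and none was called. The fibroblast markers summed to 99.2 to 147 CPM against 31.8 to 69.7 CPM, with 4 of 10 tested markers higher. Their part in the result was not tested.

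**Figure D2:**
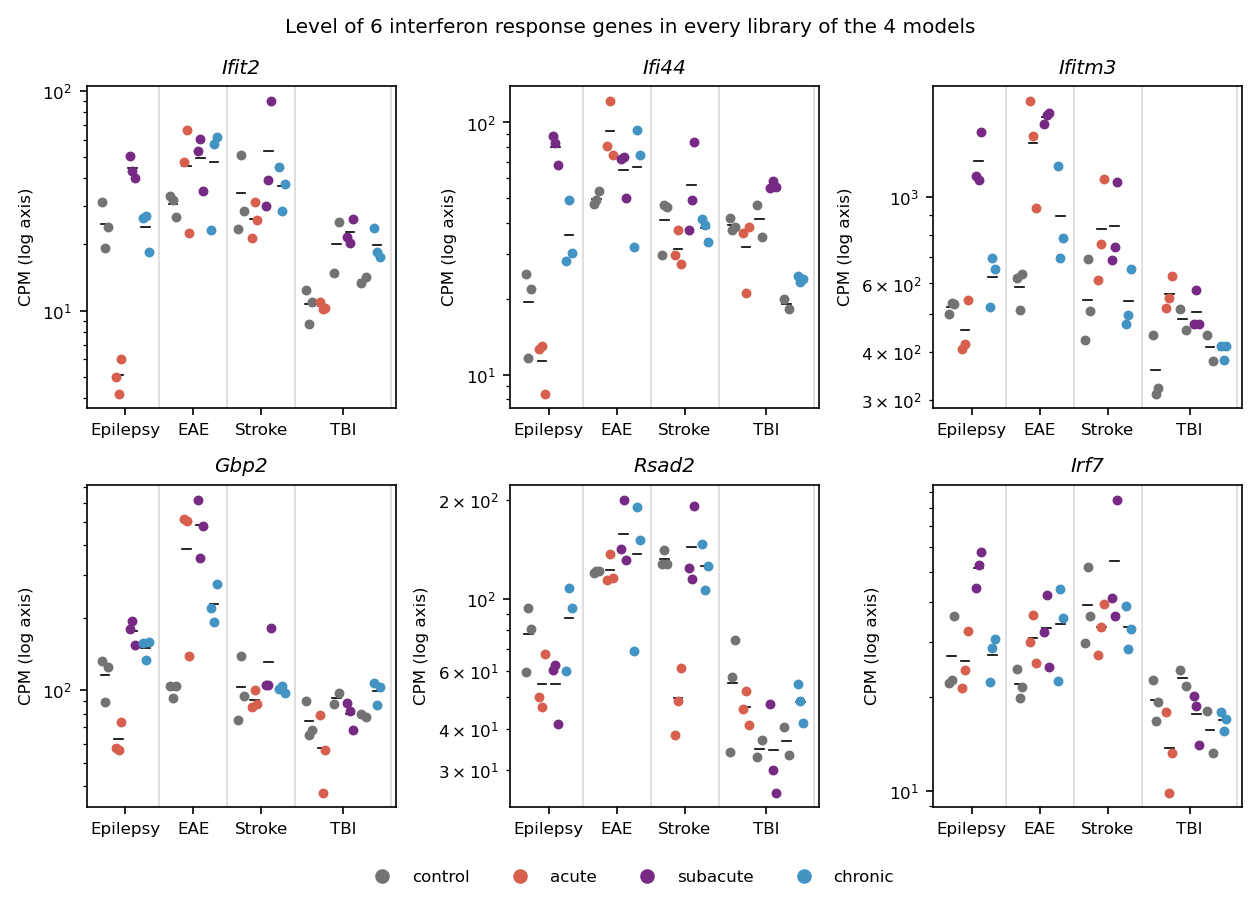
CPM on a log axis of Ifit2, Ifi44, Ifitm3, Gbp2, Rsad2 and Irf7 in every library of the 4 models; each point is 1 library, with groups along the horizontal axis. Ifit2 lies at 4.19 to 6.03 CPM in acute epilepsy against 19.3 to 31.2 CPM in its controls, and Rsad2 lies at 38.4 to 61.5 CPM in acute stroke against 128 to 141 CPM.

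In chronic epilepsy no member was called by limma, with 6 members at an unadjusted p under 0.05 and 0 called by edgeR; of all genes 0.0437% rose and 0.0218% fell. The member median was 0.20, against 0.08 over all genes. The 4 members with the smallest adjusted p were Ifitm2 (log2 fold change 0.61, adjusted p = 0.186), Ifi44 (0.87, adjusted p = 0.207), Oasl1 (0.60, adjusted p = 0.252) and Oas1a (0.57, adjusted p = 0.288). Ifi44 was at 28.2, 49.3 and 30.3 CPM, all 3 above the highest control of 25.0 CPM. Ifitm2 was at 213, 293 and 278 CPM, also above all controls. Oasl1, at 5.40, 5.14 and 5.93 CPM, exceeded its highest control of 4.02 CPM. Of Oas1a, an oligoadenylate synthetase, the chronic libraries held 14.4, 18.8 and 17.0 CPM and the controls 9.70, 8.81 and 15.1 CPM, so the groups overlapped. Irf7 was at 22.3, 28.6 and 30.5 CPM, Isg15 at 24.8, 34 and 34.3 CPM and Ifit1 at 87.1, 106 and 95.8 CPM. These 3 genes overlapped with control, as did Irf1 at 53.3, 49.4 and 52.4 CPM, Irf9 at 66.0, 77.7 and 84.9 CPM and Stat2 at 53.3, 64.7 and 78.6 CPM.

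Set directly against the acute stage, 26 of 32 members were higher in subacute epilepsy and 1 was lower, while 37.9% of all genes were higher and 11.8% lower. The member median was 1.15, against 0.33 over all genes; quantile normalization moved the latter to 0.00. Ifit2 rose by 2.91 ± 0.20 on the log2 scale (adjusted p = 9.75e-08) and Ifi44 by 2.72 ± 0.26. Irf1 was the 1 member that was lower, with a log2 fold change of -0.54 (adjusted p = 0.0109). From the subacute to the chronic stage 6 members fell, against 3.33% of genes, and none rose, against 1.62%. These were Ifitm3 (-0.99, adjusted p = 0.00129), Irf7 (-0.91, adjusted p = 0.0165), Ifi44 (-1.16, adjusted p = 0.0165), Ifit2 (-0.89, adjusted p = 0.0174), Ifit3 (-0.91, adjusted p = 0.0244) and Bst2 (-0.95, adjusted p = 0.0336). Only Ifitm3 kept its call in all 11 alternatives; 7 lost that of Bst2, 6 that of Ifit3, 5 that of Ifi44 and 4 each those of Irf7 and Ifit2. Leaving out any 1 library left 1 to 4 members called.

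**Figure D3:**
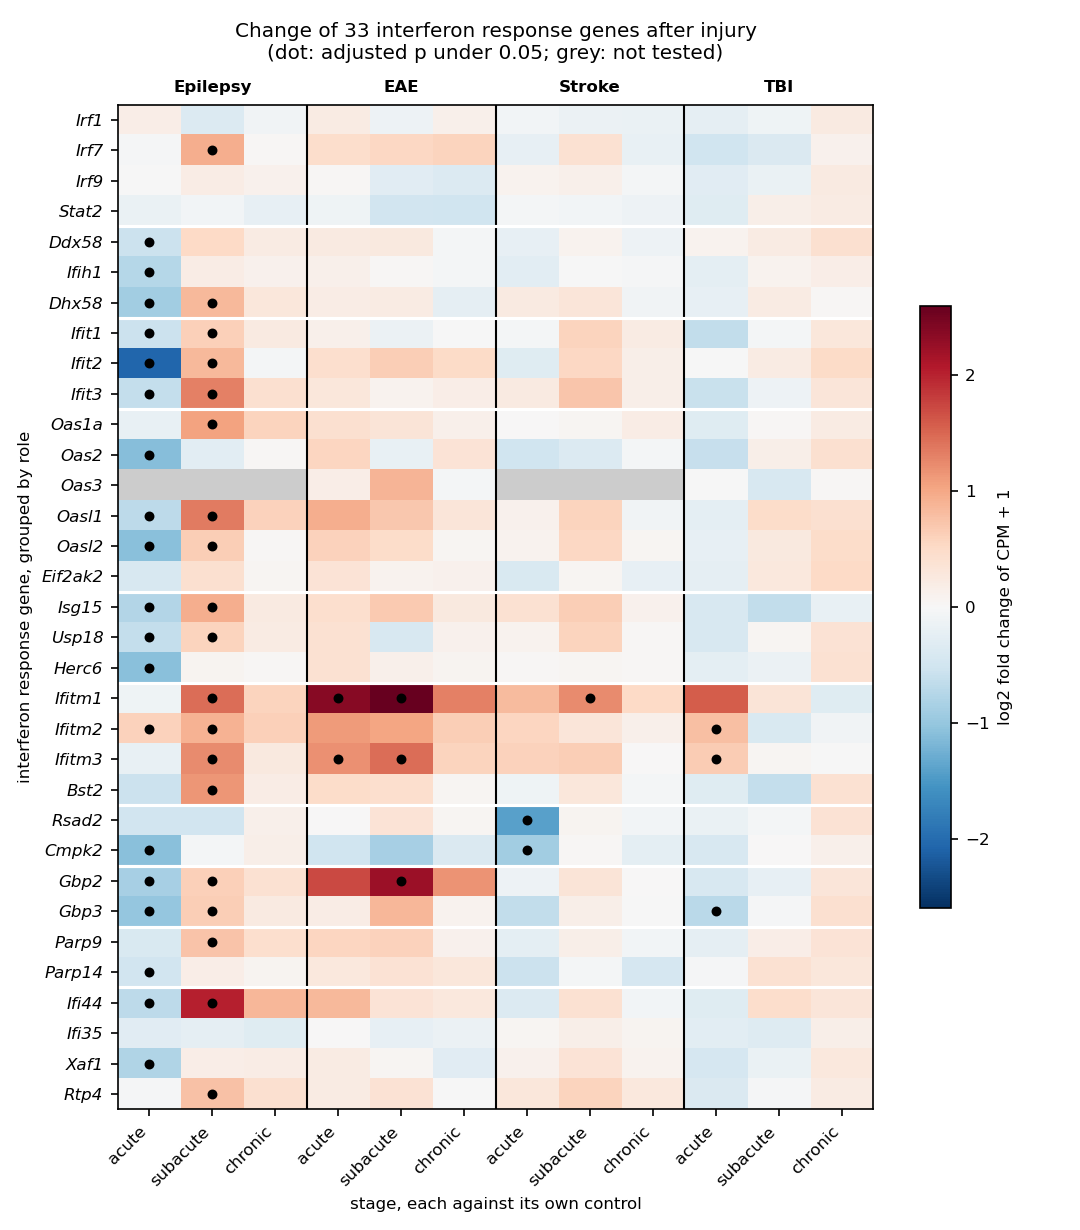
Log2 fold change of the 33 genes (rows) at each stage of each model against its own control (columns), with red higher and blue lower; a dot marks an adjusted p under 0.05 and grey marks Oas3, which was not tested in epilepsy and stroke. The acute epilepsy column holds 18 genes called lower and the subacute one 19 called higher, while the other 10 columns hold 0 to 3 called genes each.

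In EAE the members called were Ifitm1, Ifitm3 and Gbp2, while Ifitm2, Isg15, Ifit1 and the transcription factors did not pass. In the acute stage 2 of 33 members rose and none fell, where 1.11% of all genes rose and 0.145% fell. The member median was 0.35, against 0.05 over all genes. In the subacute stage 3 rose and none fell, where 8.06% of genes rose and 3.56% fell, with medians of 0.35 and 0.01. In the chronic stage limma called 0 members, with 4 at an unadjusted p under 0.05 and 0 called by edgeR; 1.88% of genes rose and 0.579% fell.

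Ifitm1 was at 14, 8.03 and 10.3 CPM in EAE controls, at 79.8, 78.3 and 32.5 CPM in the acute stage and at 67.6, 45.5 and 102 CPM in the subacute stage. No injured library of these stages overlapped with control. Its log2 fold change was 2.37 ± 0.43 in the acute stage (adjusted p = 0.0249) and 2.58 ± 0.43 in the subacute stage (adjusted p = 0.00295). Ifitm3 was at 621, 512 and 633 CPM in controls, 1774, 1439 and 937 CPM in acute EAE and 1549, 1630 and 1649 CPM in subacute EAE. The subacute values were close together, and the acute ones were spread. Its log2 fold change was 1.19 ± 0.25 in the acute stage (adjusted p = 0.0415) and 1.46 ± 0.25 in the subacute stage (adjusted p = 0.00395). The acute calls were not stable: over 13 alternatives, 6 for Ifitm1 and 8 for Ifitm3 gave an adjusted p at or above the threshold, and leaving out acute library 1, acute library 2 or any control left 0 members called. None of the 13 alternatives lost the subacute calls of Ifitm1, Ifitm3 or Gbp2.

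Gbp2, a GTPase that acts against pathogens inside cells, was at 104, 92.9 and 104 CPM in controls, 513, 503 and 139 CPM in acute EAE and 618, 353 and 479 CPM in subacute EAE. Acute library 3 was much closer to the controls than the other two. The log2 fold change was 1.71 ± 0.40 in the acute stage (adjusted p = 0.0586) and 2.22 ± 0.40 in the subacute stage (adjusted p = 0.00438). The fourth member by adjusted p was Ifitm2 in the acute stage, with 565, 269 and 313 CPM against 175, 139 and 198 CPM (1.10 ± 0.34, adjusted p = 0.126). In the subacute stage it was Parp9, an ADP-ribosyltransferase, with 44.8, 40.8 and 49.4 CPM against 29.5, 30.5 and 28.2 CPM (0.59 ± 0.18, adjusted p = 0.0521). Both were above control in every library of these stages without passing the test.

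Isg15 was at 11.4, 12.8 and 12.5 CPM in EAE controls, 25.7, 13.2 and 14.3 CPM in the acute stage and 21.8, 24.7 and 15.3 CPM in the subacute stage. The injured libraries lay above the controls, some by little, and the subacute log2 fold change was 0.68 ± 0.26 (adjusted p = 0.102). Irf7 was at 24.5, 19.9 and 21.5 CPM in controls, 29.9, 36.6 and 25.7 CPM in acute EAE and 32.2, 42.2 and 24.9 CPM in subacute EAE (0.54 ± 0.25, adjusted p = 0.177). Ifit1 was at 82.6, 95.0 and 67.5 CPM in controls, 90.0, 112 and 69.2 CPM in acute EAE and 75.0, 79.6 and 64.7 CPM in subacute EAE (-0.15 ± 0.32, adjusted p = 0.798). Ifit1 overlapped with control at both stages. Irf1, at 80.8, 92.1 and 79.4 CPM in controls and 71.5, 79.5 and 79.1 CPM in subacute EAE, and Irf9, at 65.2, 81.0 and 70.0 CPM and 47.0, 66.4 and 63.4 CPM, overlapped too. Stat2 was at 95.6, 104 and 111 CPM in controls, 54.2, 137 and 114 CPM in acute EAE and 55.4, 112 and 63.7 CPM in subacute EAE, with wide spread within both injured groups and overlap with control.

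In chronic EAE the 4 smallest adjusted p were those of Ifitm1 (1.30, adjusted p = 0.139), Gbp2 (1.17, adjusted p = 0.149), Irf7 (0.57, adjusted p = 0.289) and Ifitm3 (0.57, adjusted p = 0.293), each with its log2 fold change. Ifitm1 was at 53.3, 18.7 and 20.5 CPM and Gbp2 at 219, 191 and 275 CPM, and both stayed above every control. Irf7, at 22.5, 44.2 and 35.8 CPM, overlapped with control. Chronic library 1 held less Ifit1 (42.0 CPM) than the other two (100 and 123 CPM). Ifitm3 in that library, at 1207 CPM, was higher than in the other two (697 and 784 CPM). Between EAE stages limma called 0 members from acute to subacute and 0 from subacute to chronic, with 2 and 7 at an unadjusted p under 0.05 and 0 by edgeR in both. Of all genes, 0.0896% rose and 0.0138% fell in the former and 0.0345% rose and 0.593% fell in the latter. The 13 T and NK cell markers summed to 4.81 to 19.5 CPM in subacute EAE and 3.17 to 4.30 CPM in controls, where Cd3d was at 0, and the 1 marker tested rose. The microglia and macrophage markers summed to 26.4 to 41.0 CPM in subacute EAE and 25.5 to 49.2 CPM in controls, where Trem2 was at 0, with 0 of 10 tested markers called. The fibroblast markers summed to 708 to 3853 CPM and 339 to 1023 CPM, with 1 of 11 higher. The mural cell markers summed to 2862 to 3155 CPM in subacute EAE and 4692 to 5393 CPM in controls, with 1 of 15 tested higher and 2 lower. The endothelial markers summed to 10170 to 10824 CPM and 12000 to 12500 CPM, with 1 of 16 higher, and the astrocyte markers to 184 to 265 CPM and 138 to 177 CPM, with 0 of 7 called. In acute EAE the mural cell markers summed to 3083 to 4172 CPM, the astrocyte markers to 194 to 215 CPM and the endothelial markers to 8844 to 13645 CPM. Mitochondrial ribosomal RNA took 34.4% of reads in acute EAE library 1, 12.2 and 14.8% in the other two and 17.4 to 18.7% in controls. Their part in the result was not tested.

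Stroke changed few members, with Rsad2 and Cmpk2 lower in the acute stage and Ifitm1 higher in the subacute stage. In acute stroke 2 of 32 members fell and none rose, where 0.995% of all genes fell and 0.430% rose; the medians were -0.05 for the members and -0.11 for all genes. In the subacute stage 1 rose and none fell, where 3.66% of genes rose and 4.19% fell, and the medians were 0.31 and -0.14. In the chronic stage limma called 0 members, with 2 at an unadjusted p under 0.05, and edgeR called 0; limma called 0% of all genes in either direction. With quantile normalization, or without mitochondrial ribosomal RNA, the acute stage had 2 members higher and 2 lower. In acute stroke this RNA took 35.8 to 38.1% of reads, against 23.6 to 31.0% in controls. The endothelial markers summed to 8850 to 10028 CPM in acute stroke and 11049 to 12438 CPM in controls, with 0 of 16 called. The 9 neutrophil markers summed to 4.48 to 8.91 CPM against 1.14 to 3.59 CPM, with Mpo at 0 in both groups and Ly6g at 0 in controls, and the 1 marker tested was not called. The part of these values in the acute stroke calls was not tested beyond the fit without this RNA.

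Rsad2 was at 128, 141 and 128 CPM in stroke controls and at 38.4, 48.8 and 61.5 CPM in acute stroke. The highest acute library was well below the lowest control. Its log2 fold change was -1.42 ± 0.20 (adjusted p = 0.00437), and the adjusted p stayed at or below 0.0394 over 13 alternatives. In the subacute stage it was back at 124, 115 and 192 CPM, and in the chronic stage at 147, 106 and 126 CPM. Cmpk2 was at 50.4, 54.3 and 71.5 CPM in controls, 30.3, 35.3 and 27.1 CPM in the acute stage and 57.5, 50.6 and 73.2 CPM in the subacute stage. In the chronic stage Cmpk2 was at 60.6, 44.3 and 42.9 CPM, a range that overlapped with control (-0.25 ± 0.18, adjusted p = 0.479). Both genes were below every control in all acute libraries. Cmpk2 had an acute log2 fold change of -0.90 ± 0.18 (adjusted p = 0.0264), which 5 of 13 alternatives lost. From the acute to the subacute stage Rsad2 (1.5 ± 0.20, adjusted p = 0.000470), Cmpk2 (0.94 ± 0.18, adjusted p = 0.00690) and Gbp3 (0.81 ± 0.18, adjusted p = 0.0205) rose and no member fell, where 3.24% of genes rose and 0.987% fell. Without subacute library 3, the call of Rsad2 alone was left.

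Ifitm1 was at 9.51, 6.31 and 8.13 CPM in controls, 10.7, 18.9 and 15.9 CPM in acute stroke, 19.4, 21.3 and 19.1 CPM in subacute stroke and 9.70, 13.4 and 12.4 CPM in chronic stroke. All injured libraries lay above the controls, the subacute ones most. The log2 fold change was 0.83 ± 0.20 in the acute stage (adjusted p = 0.0505) and 1.23 ± 0.20 in the subacute stage (adjusted p = 0.00169). Ifitm2 had 142, 161 and 144 CPM in controls and 178, 202 and 291 CPM in acute stroke (0.55 ± 0.15, adjusted p = 0.0750), without overlap. In the subacute stage the next members were Ifitm3, with 690, 744 and 1098 CPM against 428, 694 and 510 CPM (0.63 ± 0.24, adjusted p = 0.110), Rtp4, a receptor transporter protein (0.58, adjusted p = 0.142), and Usp18, the protease that removes Isg15 (0.58, adjusted p = 0.155). Rtp4 was at 42.0, 69.2 and 46.0 CPM in controls and 64.9, 56.3 and 124 CPM in subacute stroke, and Usp18 at 29.4, 46.2 and 26.5 CPM and 42.6, 35.9 and 81.8 CPM. Subacute library 3 was the highest for all of these but Ifitm1.

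Isg15 showed the same library pattern, with 12.0, 20.1 and 20.3 CPM in stroke controls, 17.9, 16.7 and 38.7 CPM in the acute stage, 21.6, 16.4 and 54.5 CPM in the subacute stage and 14.3, 17.4 and 25.2 CPM in the chronic stage. Its subacute log2 fold change was 0.64 ± 0.39 (adjusted p = 0.297). Ifit1 was at 93.9, 162 and 99.8 CPM in controls and 131, 129 and 300 CPM in subacute stroke (0.57 ± 0.28, adjusted p = 0.199). Subacute library 3 was the highest of its group for both genes, and the groups overlapped with control. Irf7, at 29.6, 51.8 and 36.3 CPM in controls and 41.3, 36.2 and 85.0 CPM in subacute stroke (0.39 ± 0.27, adjusted p = 0.362), overlapped as well. Stat2 was at 60.5, 83.1 and 72.9 CPM in controls and 59.0, 52.0 and 103 CPM in subacute stroke, and Irf9 at 69.6, 86.0 and 76.6 CPM and 79.6, 71.1 and 106 CPM. Irf1 was at 52.7, 68.9 and 61.0 CPM in controls and 52.1, 48.5 and 62.6 CPM in subacute stroke. None of these factors passed the test at any stage of stroke.

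In chronic stroke, Ifitm1 (0.52, adjusted p = 0.262) and Parp14, an ADP-ribosyltransferase (-0.43, adjusted p = 0.269), had the smallest adjusted p. Parp14 was at 88.0, 103 and 106 CPM in controls and 89.1, 61.5 and 71.7 CPM in chronic stroke, so that its groups overlapped. From the subacute to the chronic stage limma called 0 members, with 4 at an unadjusted p under 0.05 and 0 by edgeR, while 0.193% of genes rose and 2.47% fell. The fibroblast markers summed to 456 to 1302 CPM in subacute stroke and 25.8 to 46.4 CPM in controls, with 10 of 10 tested markers higher. The T and NK cell markers summed to 10.8 to 26.8 CPM against 2.27 to 3.94 CPM, with Cd3g at 0 in the controls, and the 1 marker tested rose. The microglia and macrophage markers summed to 16.8 to 24.0 CPM against 11.2 to 15.2 CPM, with 1 of 7 tested markers higher. Their part in the result was not tested.

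In acute TBI 2 IFITM genes rose and Gbp3 fell, while the remaining members, mostly with negative fold changes, did not pass. Among all tested genes 3.50% rose and 1.95% fell. The member median was -0.27, against -0.03 over all genes, and 29 of 33 members had a negative log2 fold change. The share of all genes with a negative one was not counted. In 3 members every acute library lay below every control, as did 11.4% of tested genes. Ifitm3 was at 443, 312 and 323 CPM in the acute controls and 518, 549 and 629 CPM in acute TBI (0.66 ± 0.16, adjusted p = 0.0234). Ifitm2 was at 104, 111 and 100 CPM in these controls and 127, 219 and 210 CPM in acute TBI (0.78 ± 0.21, adjusted p = 0.0398). Neither gene overlapped with control. Gbp3 was at 72.9, 58.9 and 64.0 CPM in controls and 57.4, 29.1 and 36.9 CPM in acute TBI (-0.70 ± 0.19, adjusted p = 0.0453), with acute library 1 just under the lowest control. Ifitm1 was at 1.44, 2.18 and 13.1 CPM in controls and 16.1, 19.1 and 7.36 CPM in acute TBI (1.57 ± 0.49, adjusted p = 0.0725). It overlapped through control library 3 and acute library 3.

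The acute TBI calls depended on single libraries, since 0 members were left without acute control 2 or acute library 2, 1 was left without acute control 1, acute control 3 or acute library 3, and 5 were called without acute library 1. Irf7 was at 22.6, 16.8 and 19.2 CPM in controls and 17.9, 9.90 and 13.3 CPM in acute TBI (-0.51 ± 0.20, adjusted p = 0.158). Isg15 was at 21.3, 14.9 and 17.2 CPM and 16.7, 10.1 and 12.7 CPM (-0.42 ± 0.19, adjusted p = 0.234), and Ifit1 at 78.4, 38.4 and 42.5 CPM and 37.5, 21.7 and 38.9 CPM (-0.65 ± 0.25, adjusted p = 0.148). All 3 overlapped with control. Irf1 (47.4, 43.7 and 56.2 CPM in controls, 48.5, 40.4 and 36.7 CPM in acute TBI), Irf9 (84.3, 61.6 and 61.2 CPM and 66.5, 41.5 and 62.2 CPM) and Stat2 (55, 46.2 and 45.8 CPM and 46.0, 29.3 and 43.6 CPM) overlapped as well. The fibroblast markers summed to 153 to 407 CPM in acute TBI and 79.8 to 122 CPM in its controls, with 4 of 11 higher, and the microglia and macrophage markers to 51.1 to 196 CPM and 30 to 213 CPM, with 0 of 18 called. Their part in the result was not tested.

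In subacute TBI limma called 0 of 33 members, with 4 at an unadjusted p under 0.05, and edgeR called 0; 1.25% of genes rose and 0.106% fell. Isg15 was at 29.8 and 23.7 CPM in the subacute controls and 15.8, 19.5 and 15.0 CPM in subacute TBI (-0.64 ± 0.21, adjusted p = 0.191), without overlap. Bst2 was likewise below, with 12.8, 14.1 and 15.9 CPM against 19.6 and 25.1 CPM (-0.61, adjusted p = 0.336). Oasl1, with 4.17, 4.52 and 4.57 CPM against 3.01 and 2.79 CPM (0.48, adjusted p = 0.346), and Ifi44, with 55, 58.8 and 55.7 CPM against 47.3 and 35.3 CPM (0.46, adjusted p = 0.370), were above. In chronic TBI limma again called 0 members, with 3 at an unadjusted p under 0.05 and 0 by edgeR, and 0% of all genes. The member median was 0.29, against 0.13 over all genes, and 18 members lay above both controls in every chronic library, as did 20.5% of genes. Irf1 was at 67.4 and 58.4 CPM in chronic controls and 83.6, 69.8 and 69.6 CPM in chronic TBI, and Stat2 at 47.7 and 39.3 CPM and 49.7, 52.3 and 49.6 CPM. Both were a little above control, with an adjusted p of 0.950.

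The change at one stage was also compared between the 4 models in 1 fit of all groups. At the acute stage 16 of 33 members differed among the models, beside 31.3% of all genes, and at the subacute stage 5 did, beside 7.46%. The contrasts of acute epilepsy and of subacute EAE with the other 3 models were chosen with earlier results of these data known. Their adjusted p-values do not allow for that choice. Acute epilepsy minus the mean of the other 3 models was lower for 13 members and higher for none, where 24.8% of genes were lower and 8.98% higher. The member median of this difference was -0.59, against -0.17 over all genes. By adjusted p, Ifit2 came first with a difference of -2.11 ± 0.38 on the log2 scale (adjusted p = 2.3e-05), followed by Herc6 (-1.14 ± 0.25, adjusted p = 0.000280) and Oasl2 (-1.23 ± 0.28, adjusted p = 0.000678). Ifitm3 (-1.02 ± 0.25, adjusted p = 0.00126) and Gbp2 (-1.26 ± 0.33, adjusted p = 0.00275) were among them too, as was Ifitm1 (-1.71 ± 0.52, adjusted p = 0.00855), the second in size of difference. With quantile normalization 7 members were lower, and the split over all genes went from 1426 higher and 3938 lower to 2264 and 2582. Subacute EAE minus the other 3 models was higher for 1 member, Gbp2 (1.98 ± 0.34, adjusted p = 0.000301), and lower for none, where 3.12% of genes were higher and 1.27% lower; with quantile normalization 1 was higher and 2 were lower, while all genes went from 495 higher and 201 lower to 457 and 363.

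Counted by gene over all stages, Ifitm1 rose in EAE, epilepsy and stroke, and Ifitm3 in EAE, epilepsy and TBI. Ifitm2 rose in epilepsy and TBI and Gbp2 in EAE and epilepsy. Cmpk2 fell in epilepsy and stroke, and Gbp3 in epilepsy and TBI. Gbp2 and Gbp3 went both ways in epilepsy, where each fell in the acute and rose in the subacute stage. The share of all genes called in more than 1 model was not counted. The 6 members Irf1, Irf9, Stat2, Oas3, Eif2ak2 and Ifi35 were called at no stage of any model in which they were tested. Eif2ak2 encodes PKR, which halts translation when it binds double-stranded RNA.

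Further genes of the pathway were taken from fixed lists without members. Of 11 interferon genes 9 are in the table, and none passed the filter within a model. Ifnk was the most widely detected, above 0 in 61 libraries and over 1 CPM in 5, with at most 1.17 CPM (acute stroke library 2). Ifnb1 reached at most 0.726 CPM and Ifng 0.970 CPM in any library, and Ifna4 was at 0 in all. Of 20 GTPases and chemokines tested in EAE that interferon gamma induces, 8 rose in acute EAE, 16 in subacute EAE and 2 in chronic EAE, and none fell, where 1.11%, 8.06% and 1.88% of all genes rose. Their median log2 fold change was 1.37, 2.02 and 0.59 at these stages. Cxcl9, which attracts T cells, had a mean of 1.36 CPM in EAE controls, 224 CPM in acute EAE, 313 CPM in subacute EAE and 53.8 CPM in chronic EAE. In epilepsy 18 of this list were tested, and 10 fell in the acute stage and 3 rose in the subacute stage, where 30.9% of all genes fell and 11.0% rose. Cxcl10, a chemokine induced by both kinds of interferon, was at 0.820, 4.60 and 3.57 CPM in epilepsy controls, 3.85, 3.94 and 7.06 CPM in the acute stage and 29.1, 26.0 and 32 CPM in the subacute stage. In EAE it was at 19.7, 22.2 and 17.9 CPM in controls, 387, 270 and 60.1 CPM in the acute stage and 273, 188 and 156 CPM in the subacute stage. Acute EAE library 3 was thus the lowest of its group for Cxcl10, as it was for Gbp2.

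Among receptors and kinases, 3 of 8 tested genes rose and 5 fell in acute epilepsy, where 11.6% of all genes rose and 30.9% fell. Ifnar2, a chain of the type I receptor, had a mean of 134 CPM in controls and 53.0 CPM in acute libraries, a log2 fold change of -1.32 ± 0.12. Tyk2, a kinase on that receptor, gave -1.35 ± 0.18 in acute epilepsy and -0.63 in acute TBI. Ifngr2, a chain of the interferon gamma receptor, rose in the subacute stage of epilepsy (1.04), EAE (1.15) and stroke (0.69). Irf8, a transcription factor best known from myeloid cells, rose by 2.65 ± 0.41 in acute epilepsy. Among sensors, Tmem173 (STING), the adaptor that responds to cytosolic DNA, rose in subacute epilepsy (2.10), in acute (2.32), subacute (2.25) and chronic (1.34) EAE, in acute (1.68) and subacute (1.78) stroke and in acute TBI (1.74). Of 42 other interferon-induced genes tested in acute epilepsy, 25 fell and 2 rose, beside the same 30.9% and 11.6% of all genes. Among those that fell, Tnfsf10 (TRAIL), a ligand that triggers cell death, gave -3.55 ± 0.21, from a mean of 187 CPM to 14.2 CPM. In subacute epilepsy 8 of this list rose and 1 fell, beside 11.0% and 4.67% of all genes.

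**Figure D4:**
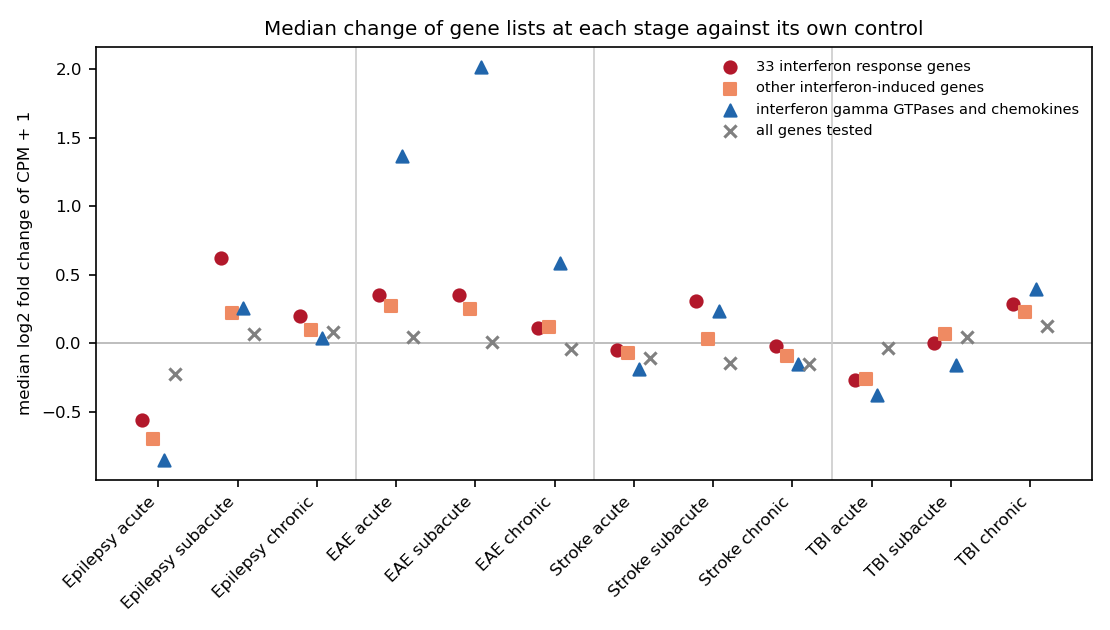
Median log2 fold change of the interferon response genes, of other interferon-induced genes, of GTPases and chemokines induced by interferon gamma, and of all tested genes, in the 12 comparisons of a stage with its control. The interferon gamma list reaches 1.37 and 2.02 in acute and subacute EAE, where the interferon response genes have a median of 0.35 at both stages.

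In healthy tissue 32 members passed the filter, and Oas3, which did not, was at most at 4.88 CPM in any library of the 7 groups. Whole brain was lowest for all 32. Brain endothelial libraries exceeded whole brain in 30 members, where 25.1% of all genes were higher and 32.6% lower (4562 and 5913 genes, and 6339 and 5162 with quantile normalization), with a median log2 difference of 3.80 for the members and -0.11 for all genes. The 2 members not called were Herc6 (0.60, adjusted p = 0.180) and Ifitm1 (0.44, adjusted p = 0.326). The endothelial markers summed to 15503 to 16156 CPM in brain endothelial libraries and 138 to 216 CPM in whole brain.

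Against the mean of heart, kidney, lung and liver endothelium, brain endothelial libraries were higher for 3 members and lower for 7, where 11.0% of all genes were higher and 20.6% lower. Organ and preparation cannot be told apart in this comparison. The brain vascular libraries, given further below, share their described preparation with the organ libraries. The member median was -0.16, against -0.14 over all genes. Ifitm2 was at 119 and 263 CPM in brain endothelial libraries, 831 and 902 CPM in heart, 648 and 674 CPM in kidney, 952 and 593 CPM in lung and 2483 and 2342 CPM in liver. Both brain libraries lay below every organ library, and the log2 difference was -2.51 ± 0.30 (adjusted p = 2e-05). Irf1 was at 26.6 and 88.2 CPM in brain endothelial libraries and between 190 CPM (liver 1) and 742 CPM (liver 2) in the organs (-2.78 ± 0.47, adjusted p = 0.000476). Ifitm1 was at 1.22 and 1.08 CPM in brain endothelial libraries and at 1.57 to 29.0 CPM in the organs (-1.77 ± 0.33, adjusted p = 0.00103). The members that were higher were Irf7 (1.30 ± 0.29, adjusted p = 0.00391), Gbp3 (1.19 ± 0.35, adjusted p = 0.0180) and Oasl2 (0.70 ± 0.21, adjusted p = 0.0217). Irf7 was at 115 and 67.6 CPM in brain endothelial libraries against 14.4 to 67.9 CPM in the organs, so the lower brain library overlapped with kidney. Oasl2 was at 111 and 100 CPM, above all organ libraries. All 3 of these calls were lost without brain endothelial library 1, with an adjusted p of 0.103 for Irf7, 0.192 for Gbp3 and 0.155 for Oasl2. Of the lower members, Ifitm3 (adjusted p = 0.0855) and Gbp2 (0.189) lost their calls in the same run.

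The brain vascular preparation gave other values for some of these genes. Of 32 members 2 were higher than in the organs and 9 lower, where 6.75% of all genes were higher and 15.4% lower, with medians of -0.41 and -0.14. Ifitm1 was at 18.4 and 13.7 CPM in brain vascular libraries, so it was above the organ mean here (1.20) and below it in the brain endothelial libraries. Irf7 was at 19.9 and 43.6 CPM in brain vascular libraries and was not among the called genes. Irf1 (-2.49), Ifitm2 (-2.27), Bst2 (-1.73) and Ifitm3 (-1.26) were lower than the organs in both preparations. Parp14 was lower in both as well (limma, adjusted p = 0.0238 for brain endothelial and 0.00116 for brain vascular). Without brain vascular library 1, the brain vascular calls of Irf1 (adjusted p = 0.0670), Ifitm3 (0.152) and Ifitm1 (0.206) were lost. With quantile normalization the members' counts were the same for both preparations, while all genes went from 2003 higher and 3734 lower to 3188 and 3072 for brain endothelial and from 1225 and 2795 to 2004 and 2320 for brain vascular. The labels give a mouse line and isolation for the brain endothelial libraries and not for the brain vascular ones, so line, isolation and preparation cannot be told apart.

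Between the 4 peripheral organs 20 of 32 members differed, beside 34.1% of all genes. Rsad2 was at 1799 and 1680 CPM in kidney, 95.3 and 138 CPM in heart, 62.0 and 103 CPM in liver and 4.57 and 7.01 CPM in lung. The kidney mean was 300 times the lung mean (limma F test, adjusted p = 7.84e-09). Ifi44 followed the same order at its ends, with 440 and 298 CPM in kidney, 34.1 and 63.5 CPM in heart, 35.7 and 33 CPM in liver and 7.24 and 5.42 CPM in lung, a ratio of 58.3 (adjusted p = 2.68e-07). Cmpk2, at 133 and 107 CPM in kidney and 15.6 and 13.6 CPM in lung, had a ratio of 8.2 (adjusted p = 0.000125). For these 3 genes kidney stood apart, while heart and liver lay close together. Oasl1 had another order, with 30.4 and 21.1 CPM in heart, 15.3 and 21.6 CPM in kidney, 5.07 and 14.2 CPM in liver and 0.517 and 1.68 CPM in lung, a ratio of 23.5 (adjusted p = 0.000165). Heart and kidney overlapped for Oasl1.

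Lung endothelium had the lowest mean of the 4 organs for 21 of 32 members and the highest for 1, Ifi35. Heart was highest for 11, liver for 10 and kidney for 10. Some members hardly varied, such as Parp9, with a ratio of 1.13 between the highest and the lowest organ, and Ifitm3, with 1.42. Of all 7 groups, brain endothelial was highest for Irf7, Oasl2, Eif2ak2 and Gbp3, and for Oasl2 alone without overlap with the next group. Macrophage markers in these libraries summed to 1443 to 2204 CPM in lung and 2688 to 3197 CPM in liver, against 16.1 to 19.3 CPM in brain endothelial, 101 to 239 CPM in heart and 76.3 to 105 CPM in kidney. Kidney tubule markers summed to 35.9 to 101 CPM in kidney and were at 0 in brain endothelial libraries. Their part in the organ differences was not tested.

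**Figure D5:**
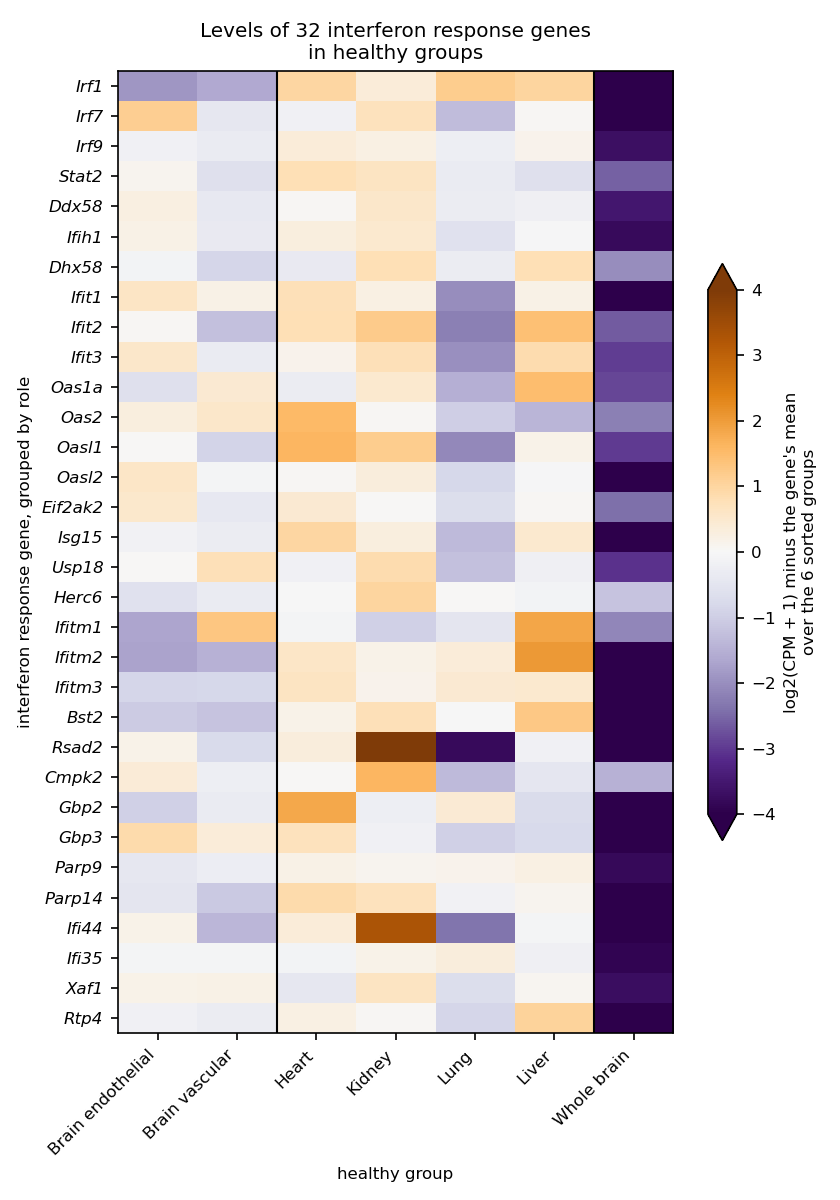
Level of 32 interferon response genes in the 7 healthy groups, as log2(CPM + 1) minus the mean of the gene over the 6 sorted groups. Orange is above that mean, purple below, and the colour scale ends at 4 in both directions. Kidney stands out for Rsad2 (1799 and 1680 CPM) and Ifi44 (440 and 298 CPM), lung is low for most genes and whole brain is lowest for all 32.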

How the data were processed

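The data are RNA-seq of 68 libraries. Per the labels' protocols, RNA was amplified and made into libraries with NuGEN Ovation kits. Tools listed in the submitters' processing notes, with no roles given, are Subread's featureCounts and TopHat2 (2.0.13); the build listed is mm9. The authors deposited CPM values per gene, and depth was recovered from them: 100% of 1374704 values above 0 were whole multiples of 1 read within 0.001 reads, which gives 18.78 to 38.76 M reads per library. Every per-sample column was used.

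Groups follow the sample labels. limma 3.58.1 (R 4.3.3, trend on) was fitted to log2(CPM + 1), with all groups of a model in 1 fit, for genes over 1 CPM in at least 3 libraries (2 in TBI, the fit of all models and healthy tissue), and p-values were adjusted by Benjamini-Hochberg over all genes tested. Differences among models used 1 fit of all groups. edgeR 4.0.16 (quasi-likelihood) on the recovered reads, quantile normalization, a pseudocount of 0.1, no filter, fits of only 2 groups, a replicate block, removal of mitochondrial ribosomal RNA, pooled TBI controls and leaving out each library were the alternatives. The code was tested on simulated data. Deviations of same-numbered libraries from their group means had median correlations of 0 to 0.06, although single pairs reached 0.48. Numbers were therefore not treated as pairs.

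Members, lists and the contrasts of a single model with the other models were chosen with earlier results of these data known. Genes are given in full if among the 4 members with the smallest adjusted p of a stage comparison, together with Irf1, Irf7, Irf9, Stat2, Isg15 and Ifit1, and in healthy tissue the 4 with the smallest p among organs and the 3 with the smallest p in brain endothelium; from other lists up to 3 called genes with the largest fold were taken, and others are named as examples of their role after their values were seen. Promoter sequences are RefSeq's on GRCm38.p6, not the build in the processing notes, and were matched by symbol. With 2 or 3 libraries per group, only large differences can pass.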

Additional observations from a re-analysis of the deposited data

Results flagged for a closer look

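Ifi44 in whole brain had 1 library apart from the other 3, at 1.30 CPM beside 0.738 to 0.831 CPM; chance sets apart about 1 group in 20 by the test used for this. The change against control differed among the 4 models for 16 members at the acute stage and for 5 members at the subacute stage, by limma F tests of the difference itself with adjustment over all genes. At the acute stage the adjusted p was 1.82e-05 for Gbp2, 0.000188 for Ifit2, 0.00104 for Herc6, 0.00183 for Oasl2, 0.00375 for Ifitm3, 0.00490 for Oasl1, 0.00716 for Parp9, 0.00894 for Oas2, 0.0118 for Gbp3, 0.0120 for Ifitm1, 0.0128 for Ifi44, 0.0143 for Rsad2, 0.0242 for Dhx58, 0.0316 for Parp14, 0.0455 for Xaf1 and 0.0477 for Ifih1. At the subacute stage it was 0.00129 for Gbp2, 0.00961 for Ifi44, 0.0121 for Bst2, 0.0128 for Ifitm3 and 0.0290 for Ifitm2.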

How the results depend on the processing

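No called value changed its direction under any alternative run. Of the 3827 single-member results that were followed outside the main settings, 314 lost and 3 gained their call. These do not cover every member in every comparison, so gains by the rest show only in the counts below. Counts of members called moved as follows. In acute epilepsy edgeR called 12, and in subacute epilepsy a fit of only the 2 groups called 11. Over all genes these runs called 5681 and 1031, against 5834 and 2150 in the main runs. Without the filter, 1 member was called from subacute to chronic epilepsy, 0 in acute EAE, 1 in acute stroke and 0 in acute TBI. Of all genes, 440, 10, 23 and 443 were then called, against 680, 182, 192 and 769 in the main runs. Fits of only the 2 groups called 1 in acute EAE, 9 in subacute EAE, 1 in chronic EAE and 0 in acute TBI. They called 64, 2937, 1108 and 183 of all genes, against 182, 1686, 357 and 769 in the main runs. Quantile normalization gave 4 in acute stroke, 7 in acute epilepsy minus the other models and 3 in subacute EAE minus the other models. All genes called went from 192 to 277, from 5364 to 4846 and from 696 to 820. Without mitochondrial ribosomal RNA there were 5 in subacute EAE and 4 in acute stroke, while all genes called went from 1686 to 2137 and from 192 to 407. With pooled TBI controls 1 was called in subacute TBI, and with a pseudocount of 0.1 brain vascular against organs gave 7. Here all genes called went from 192 to 439 and from 4020 to 4003. The replicate block gave 5 in subacute EAE and 2 in subacute EAE minus the other models. It moved all genes called from 1686 to 1668 and from 696 to 740. The block took Ifi44 in acute epilepsy to an adjusted p of 0.0511 and Ifitm2 in acute TBI to 0.0541. It took 3 calls in healthy tissue to 0.0527, 0.0591 and 0.0607. Correlations of same-numbered libraries ran from -0.69 (TBI) to 0.48 (EAE), with medians of 0 to 0.06. Leaving out 1 library at a time gave 12 to 22 members in acute epilepsy (12 without control 3), 10 to 21 in subacute epilepsy (10 without subacute library 1), 1 to 4 from subacute to chronic epilepsy, 0 to 3 in acute EAE, 3 to 4 in subacute EAE, 0 to 2 from subacute to chronic EAE (2 without chronic library 1), 1 to 2 in acute stroke, 1 to 4 from acute to subacute stroke (1 without subacute library 3), 0 to 5 in acute TBI, 10 to 18 among models at the acute stage (10 without acute EAE library 2) and 3 to 9 at the subacute stage. It gave 8 to 16 in acute epilepsy minus the other models (8 without acute epilepsy library 1), 1 to 3 in subacute EAE minus the others, 7 to 11 in brain endothelial and 4 to 12 in brain vascular (4 without brain vascular library 1) against organs, and 17 to 20 among organs. Counts over all genes were not set beside those with 1 library left out. The causes of these moves were not tested.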
